A study of Rattus norvegicus with 36 samples.

Results

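Unstimulated rat granulosa cells exposed to 5 µM HPTE were compared with unstimulated granulosa cells given no HPTE. HPTE is the bis-hydroxylated metabolite of the pesticide methoxychlor, and it binds estrogen receptors. The comparison used 6 of the 36 arrays of the series, 3 titled HPTE_5_Basal and 3 titled HPTE_0_Basal, chosen by their titles and matched by the number 1, 2 or 3 in the title. The cells were released with needles, without enzymes, from the ovaries of Sprague-Dawley rats that were 21 to 27 days old and immature. They attached over 24 h in 5% serum before 48 h of serum-free treatment. The treated group received 5 µM HPTE with neither FSH nor cAMP, and the control group received 0 µM HPTE with neither. All cells of the series, the controls included, were given 0.1 µM androstenedione as substrate for aromatase. Further groups are used only beside these: 1 and 10 µM HPTE in basal cells, and 5 and 0 µM HPTE with 3 ng/ml FSH or 1 mM cAMP, with 3 arrays in each of the 12 groups of the series. RNA (40 ng a sample) was amplified and hybridised to Affymetrix rat arrays, on which a probe set is the group of short probes that reports 1 transcript. The labels do not say whether the 3 arrays of a group came from separate animals, cell pools or wells. The p-values rest only on the spread of arrays within groups, pooled over all 12 groups and 36 arrays. That spread may be technical.

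Granulosa cells surround the oocyte in the ovarian follicle. In the absence of FSH they make little estrogen. FSH acts through cAMP to switch on aromatase (Cyp19a1), which turns androstenedione into estrogen, and later the LH receptor (Lhcgr). HPTE is known as an agonist of estrogen receptor alpha and as an antagonist of estrogen receptor beta and of the androgen receptor, and granulosa cells carry mainly the beta form.

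The labelled cell type was checked against markers. Of 13 measured granulosa markers none was called; 9 differed below 0, 1 of them (Amh) at an unadjusted p below 0.05, the median difference was -0.15 with a range of -0.90 to 0.06, and their mean levels lay between the 63.1 and the 99.9 percentile of all probe sets over the series. Foxl2, the transcription factor that keeps granulosa identity, had log2 intensities of 10.99, 10.54 and 10.78 at 5 µM HPTE and of 10.80, 10.71 and 10.91 at 0 µM. Inhba, the inhibin and activin beta A subunit, lay at 12.66 to 12.83 at 5 µM and at 12.67 to 12.83 at 0 µM. Cyp19a1 was low in both groups, at 4.32 to 4.87 at 5 µM and at 4.50 to 5.11 at 0 µM, as was the theca enzyme Cyp17a1, at 4.65 to 5.18 at 5 µM and 4.75 to 4.89 at 0 µM. The 9 measured theca and stroma markers had no call and a median difference of -0.17, with 6 below 0, and ranged from Col1a1 at -1.15 to Col3a1 at 0.65; their linear intensities summed to 2772, 2540 and 2805 at 5 µM and to 3266, 2534 and 2691 at 0 µM. The 7 measured surface epithelium markers had no call and a median of -0.12, with Krt7 (-0.46) and Msln (-0.33) lower at an unadjusted p below 0.05, and summed to 379, 429 and 425 at 5 µM and to 479, 398 and 448 at 0 µM. The summed linear intensity of the 12 macrophage and leukocyte markers was 2727, 1873 and 1232 at 5 µM in arrays 1, 2 and 3, and 2562, 1590 and 1067 at 0 µM, so it differed between array numbers by more than between doses. The 6 measured oocyte markers summed to 331, 640 and 657 at 5 µM and to 681, 708 and 893 at 0 µM; 5 of the 6 were lower at 5 µM and none passed the test. Because whole cultures were lysed, fewer cells of a type and less RNA per cell cannot be told apart in any value below.

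Arrays of equal number resembled each other across doses, and arrays numbered 3 stood apart from the others in the whole series. The second principal component, with 27.2% of the variance, separated number 3 from numbers 1 and 2. The Gapdh 3′ to 5′ probe set difference, a sign of RNA length and amplification, was 2.01, 2.03 and 0.767 (log2) at 5 µM and 2.31, 1.99 and 0.964 at 0 µM. The actin difference was 3.71, 3.64 and 1.87 at 5 µM and 3.75, 3.59 and 2.21 at 0 µM. Both doses thus held the same mixture of array kinds. Outside the basal cells, the arrays numbered 2 of the unexposed FSH and cAMP groups went against their labels: Cyp19a1 was 11.5, 7.48 and 11.5 in arrays 1, 2 and 3 labelled FSH, and 7.62, 11 and 6.46 in those labelled cAMP. These 2 arrays enter the comparisons below only through the variance estimate and through the FSH and cAMP effects, which are given with and without them.

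After 48 h at 5 µM HPTE, 36 of 31042 probe sets passed the test (limma on log2 intensity with the array number as a block, Benjamini-Hochberg adjusted p below 0.05), which is 0.116% of those tested. Of these, 9 were higher at 5 µM (0.029%) and 27 were lower (0.087%). They stood for 27 named genes, 8 higher and 19 lower, and 9 probe sets without a gene symbol, 1 higher and 8 lower. The genes that fell include Cyp26b1, which degrades retinoic acid, the sulfotransferase Sult1a1, the Cdc42 effector Cdc42ep2, the angiotensin receptor Agtr1a and the cyclooxygenase Ptgs1. Those that rose include the secreted proteoglycan Esm1, the aldo-keto reductase Akr1c3 and the urea transporter Slc14a1.

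The response was small in number and moderate in size. The lowest fitted difference among the called probe sets was -1.90 for Cyp26b1 and the highest was 1.37 for Esm1, both on the log2 scale, and 11 of the lower and 4 of the higher probe sets changed by at least 2-fold. All 36 had the same sign in 3 of 3 numbered pairs, a pattern shown by 31.4% of all probe sets. The 5 µM and 0 µM arrays did not overlap for 24 of the 27 lower probe sets (4.08% of all probe sets) and 6 of the 9 higher ones (2.16% of all), against 6.23% in either direction. Over all probe sets the median difference was -0.006. Unadjusted p-values below 0.05 were found for 1194 probe sets, or 3.85%, which is under the 5% that tests of unchanged probe sets would give. Just inside the threshold stood Agtr1a (adjusted p = 0.0464) and Exph5 (0.0481), and among those just outside it were Nptx1 (-1.10, 0.0518), Atat1 (0.85, 0.0552) and Klf9 (-0.65, 0.0629).

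The number of calls depended on the block and on the arrays in the fit. Without the array number in the model, 4 of the 36 were still called (Esm1, Slc14a1, Sult1a1 and Cdc42ep2), and no other probe set was. With the number as a random effect 20 were called, without the 2 arrays that went against their labels 69, and with basal arrays alone 70. With arrays 1 and 2 alone 1 was called (Adgrf5), and with the 6 arrays alone 223 were. Leaving out 1 of the 6 arrays at a time gave 14 to 27 calls and kept between 12 and 20 of the 36; 12 of the 36 were called in all 6 of these fits and 8 in none. Without array 2 of 0 µM 12 of the 36 were kept, and without array 3 of 5 µM 13 were. Called in all 6 were Cyp26b1, Clec2d2l2, Sult1a1, Adgrf5, Mreg, Cdc42ep2, Apoc3, Tmem176b, Esm1 and 3 without a symbol, and called in none were Crispld2, Exph5, Bnc2, Ppm1k, Nhlrc3, Mylk3 and 2 without a symbol. The fitted differences themselves do not depend on the block in this balanced design, only their errors do.

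**Figure D1:**
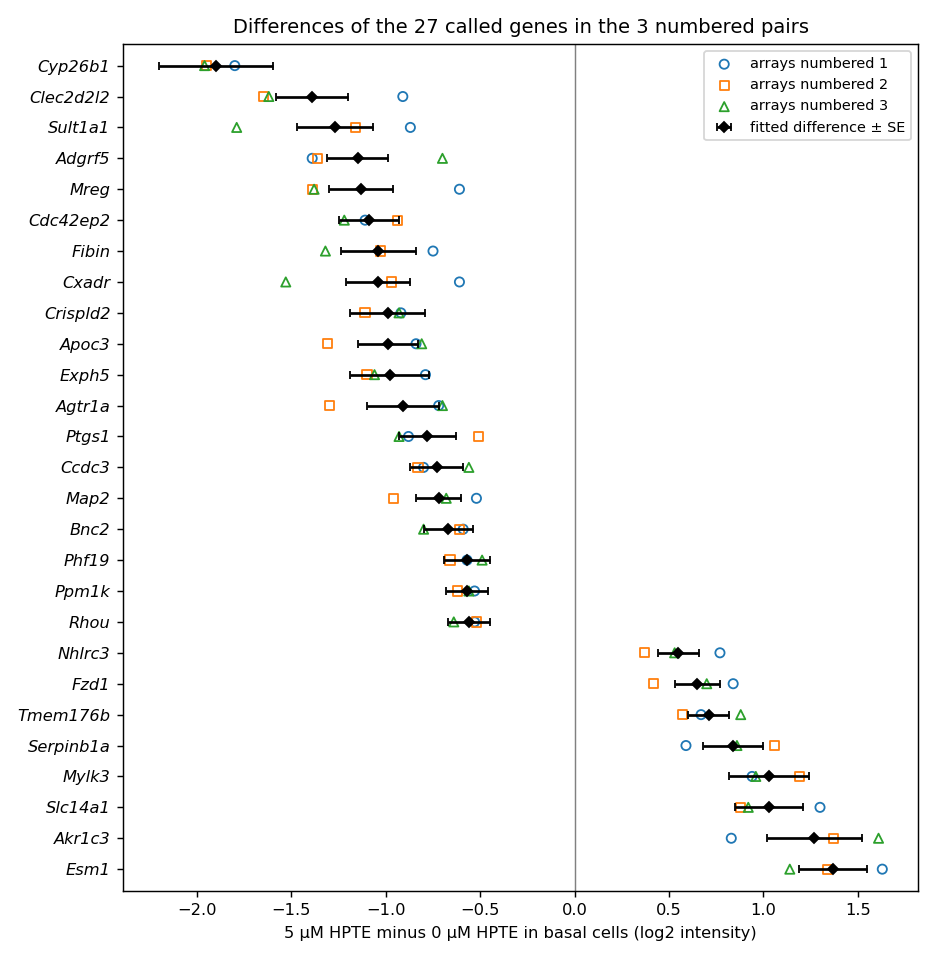
Differences of the 27 named genes between 5 µM and 0 µM HPTE in basal cells, in log2 intensity on the horizontal axis, with 1 open symbol for each pair of arrays of equal number and the fitted difference ± SE in black. Every pair lies on the same side of 0 for all 27 genes, from Cyp26b1 at -1.90 to Esm1 at 1.37.

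The DNA before the start of 4 of these genes is shown because it belongs to the largest fall (Cyp26b1) and to the genes called both with and without the block that had an entry in the promoter table (Sult1a1, Slc14a1 and Esm1). Each window runs from 250 bases before to 50 after the gene start in RefSeq's GRCr8 assembly, on the gene's own strand, 5′ to 3′. It lies at chr4:118616127-118616426 (minus strand) for Cyp26b1, at chr1:190706063-190706362 (minus strand) for Sult1a1, at chr18:73864594-73864893 (minus strand) for Slc14a1 and at chr2:46609003-46609302 (plus strand) for Esm1. Capitals mark matches on either strand to the motifs searched, which are spelled out after the sequences.
Cyp26b1: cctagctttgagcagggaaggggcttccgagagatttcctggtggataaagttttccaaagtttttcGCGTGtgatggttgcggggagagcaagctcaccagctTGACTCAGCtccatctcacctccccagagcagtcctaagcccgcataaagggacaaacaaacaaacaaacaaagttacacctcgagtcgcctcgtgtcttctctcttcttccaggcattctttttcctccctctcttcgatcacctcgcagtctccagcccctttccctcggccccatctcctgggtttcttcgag
Sult1a1: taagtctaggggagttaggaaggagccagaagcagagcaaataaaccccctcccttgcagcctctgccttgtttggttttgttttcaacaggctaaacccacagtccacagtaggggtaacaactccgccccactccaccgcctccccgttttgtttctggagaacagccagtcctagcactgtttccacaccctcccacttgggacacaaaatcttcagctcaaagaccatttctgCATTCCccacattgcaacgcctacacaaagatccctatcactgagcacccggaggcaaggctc
Slc14a1: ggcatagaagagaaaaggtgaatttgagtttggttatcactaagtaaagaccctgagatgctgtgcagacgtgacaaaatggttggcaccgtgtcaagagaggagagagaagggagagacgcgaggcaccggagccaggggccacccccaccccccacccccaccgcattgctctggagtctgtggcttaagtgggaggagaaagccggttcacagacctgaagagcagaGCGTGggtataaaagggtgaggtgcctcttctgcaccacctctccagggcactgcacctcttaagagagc
Esm1: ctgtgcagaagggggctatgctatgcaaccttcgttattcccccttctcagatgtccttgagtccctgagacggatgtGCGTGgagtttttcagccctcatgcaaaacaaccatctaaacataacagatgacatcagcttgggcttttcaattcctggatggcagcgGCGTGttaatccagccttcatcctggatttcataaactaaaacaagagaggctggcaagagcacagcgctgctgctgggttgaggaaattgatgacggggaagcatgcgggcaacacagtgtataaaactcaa

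Motif letters were searched on both strands in the windows of the 21 called genes that had an entry, beside all 33469 windows of the table. The core letters of the xenobiotic response element, GCGTG, to which the aryl hydrocarbon receptor binds, were in 9 of the 21 windows and in 29.7% of all windows. They occur once each in the Cyp26b1 and Slc14a1 windows, 183 and 20 bases before the start, and at 172 and 83 bases before the start of Esm1. The short estrogen response motif, GGTCA, was in 8 of 21 windows and in 40.5% of all, and in none of the 4 shown. The antioxidant response element, TGACNNNGC, was in 3 of 21 (12.1% of all), and the AP-1 site, TGANTCA, in 1 of 21 (7.33% of all). Both of these begin at the same base of the Cyp26b1 window, 146 before the start, and overlap there. The TEAD site, GGAATG, was in 3 of 21 (14.2% of all), among them Sult1a1 at 13 bases before the start on the opposite strand. The full cAMP response element, TGACGTCA, and the SRF CArG box were in none of the 21, and in 1.83% and 1.64% of all windows. A match is a description of the letters and not a site that was measured to be bound.

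Among enzymes of small molecules, Cyp26b1 fell the most. Cyp26b1, a cytochrome P450 that oxidises and so clears retinoic acid, had log2 intensities of 7.04, 7.24 and 7.06 at 5 µM HPTE against 8.84, 9.19 and 9.02 at 0 µM. Every treated array was below every control array, and the fitted difference was -1.90 ± 0.30 (SE), or 3.74-fold lower (adjusted p = 0.00254, limma). A second Cyp26b1 probe set, with a mean of 5.51 over the series, differed by -0.41 and was not called. Cyp26b1 was called in all 6 fits that left out an array, where its difference ran between -2.04 and -1.74. In the list of retinoid and lipid metabolism genes it was the only 1 of 22 measured members called; 3 others were lower and 3 higher at an unadjusted p below 0.05, and the list's median difference was 0.01. Next in size was Pparg, a nuclear receptor of lipid metabolism, at -0.69 ± 0.26 (adjusted p = 0.912).

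Sult1a1, a cytosolic sulfotransferase that attaches sulfate to phenols, read 4.84, 5.04 and 4.83 at 5 µM against 5.70, 6.19 and 6.62 at 0 µM. The control arrays differed among themselves by nearly a log2 unit while the treated arrays lay close together, and the groups did not overlap. The treated values lay near the low end of the scale, and whether that end limited their spread or the fold was not tested. The difference was -1.27 ± 0.20, or 2.41-fold lower (adjusted p = 0.00241). Sult1a1 is the only called gene of the 29 measured members of the xenobiotic and conjugation list, and it fell, whereas the 5 members higher at an unadjusted p below 0.05 (Cyp1b1 0.57, Mgst2 0.32, Gstp1 0.40, Gsta1 0.76 and Mgst1 0.25, named after their values were seen) did not pass the test. All probe sets gave 1.39% higher at that unadjusted threshold, and the list's median was 0.04. The sulfate donor enzyme Papss2 was among the separated genes that missed the threshold, at 8.61, 8.39 and 8.14 with 5 µM and 9.53, 9.87 and 9.38 with 0 µM (-1.22 ± 0.27, adjusted p = 0.0656).

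Akr1c3 rose. Aldo-keto reductases of this subfamily reduce steroids and other carbonyls, and human AKR1C3 makes 17-beta-hydroxysteroids. Its probe set read 8.90, 8.85 and 7.98 at 5 µM against 8.07, 7.47 and 6.36 at 0 µM. The level declined with array number at both doses, so the groups overlapped: treated array 3 lay below control array 1. Within pairs the difference was 0.83, 1.37 and 1.61, and the fitted value was 1.27 ± 0.25, or 2.42-fold higher (adjusted p = 0.031). Rat Akr1c genes are near copies of each other, so the probe set may read more than 1 of them. Ptgs1, the constitutive cyclooxygenase of prostaglandin synthesis, fell to 5.98, 6.25 and 5.52 at 5 µM, against 6.86, 6.76 and 6.45 at 0 µM (-0.78 ± 0.15, adjusted p = 0.0177). Its arrays did not overlap. A second, uncalled Ptgs1 probe set differed by 0.08, but its mean log2 intensity over the series was 4.43, near the low end of the scale.

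Metabolic regulators among the called genes also fell. Apoc3, an apolipoprotein that inhibits lipoprotein lipase, read 6.94, 6.69 and 5.83 at 5 µM against 7.79, 8.0 and 6.64 at 0 µM. Control array 3 lay below 2 of the treated arrays, yet every pair was lower at 5 µM, with a fitted difference of -0.99 ± 0.16 (adjusted p = 0.00241). Ppm1k, the mitochondrial phosphatase that activates branched-chain keto acid dehydrogenase, read 9.57, 9.58 and 9.13 at 5 µM against 10.09, 10.20 and 9.70 at 0 µM. Its pairs were close to each other, and the difference was -0.57 ± 0.11 (adjusted p = 0.0169). The 2 other Ppm1k probe sets, with means of 5.85 and 5.64 over the series, differed by -0.05 and -0.12 and were not called.

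Receptors at the cell surface moved in both directions. Adgrf5, an adhesion G protein-coupled receptor known for its part in lung surfactant control, read 4.90, 5.20 and 4.75 at 5 µM against 6.29, 6.56 and 5.45 at 0 µM. The treated values lay near the low end of the scale. No array overlapped, and the difference was -1.15 ± 0.16, or 2.22-fold lower (adjusted p = 0.000977). Its other 2 probe sets differed by -0.84 and -0.60 (adjusted p = 0.101 and 0.143), and the called probe set is not the one of highest mean among the 3. Agtr1a, the angiotensin II type 1a receptor, read 6.07, 5.58 and 5.88 at 5 µM against 6.79, 6.88 and 6.58 at 0 µM. The groups were separate, with a difference of -0.91 ± 0.19 (adjusted p = 0.0464) that was called in 1 of the 6 fits with an array left out. A second Agtr1a probe set, with a mean of 5.7 over the series, differed by -0.21. Fzd1, a receptor for Wnt ligands, rose to 10.08, 9.91 and 10.92 at 5 µM, against 9.24, 9.49 and 10.21 at 0 µM. Array 3 was the highest at both doses and the groups overlapped, with a paired difference of 0.65 ± 0.12 (adjusted p = 0.0199).

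Cxadr, the coxsackievirus and adenovirus receptor, a cell junction protein, fell and read 7.47, 7.4 and 6.67 at 5 µM against 8.09, 8.37 and 8.2 at 0 µM. The drop was widest in pair 3 and the groups were separate (-1.04 ± 0.17, adjusted p = 0.00427). Clec2d2l2, a C-type lectin-like gene with near copies in the rat genome, read 9.01, 8.60 and 7.76 at 5 µM against 9.91, 10.25 and 9.38 at 0 µM. Treated arrays were all lower (-1.39 ± 0.19, or 2.62-fold, adjusted p = 0.000833), and its probe set may read more than 1 member of the family.

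Genes of the cytoskeleton and of vesicle transport formed a further group. Cdc42ep2, an effector through which the small GTPase Cdc42 shapes actin and septins, read 7.88, 7.67 and 7.67 at 5 µM against 8.99, 8.61 and 8.89 at 0 µM. Both groups were tight and separate (-1.09 ± 0.16, or 2.13-fold lower, adjusted p = 0.00155). Rhou, an atypical GTPase related to Cdc42, read 9.93, 9.64 and 8.76 at 5 µM against 10.47, 10.15 and 9.41 at 0 µM. Array numbers spread it more than the dose did, and only the pairs showed the fall of -0.56 ± 0.11 (adjusted p = 0.0273). Map2, a microtubule-binding protein best known from neurons, read 8.48, 8.69 and 8.69 at 5 µM against 9.0, 9.65 and 9.38 at 0 µM (-0.72 ± 0.12, adjusted p = 0.00427). The 2 groups were separate, and a second Map2 probe set, with a mean of 5.23 over the series, differed by -0.12.

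Mreg, melanoregulin, which acts in organelle transport and membrane fusion, read 7.41, 7.16 and 6.53 at 5 µM against 8.02, 8.55 and 7.90 at 0 µM. All treated arrays were lower, with a difference of -1.13 ± 0.17, or 2.18-fold lower (adjusted p = 0.00155). Exph5, an effector of the vesicle GTPase Rab27, read 4.97, 4.90 and 5.37 at 5 µM against 5.75, 6.0 and 6.42 at 0 µM. Its treated values were near the low end of the scale. Its groups were separate, but the call was near the threshold (-0.98 ± 0.21, adjusted p = 0.0481) and was lost when any of the 6 arrays was left out. Mylk3, the cardiac myosin light chain kinase, rose to 8.53, 9.34 and 8.86 at 5 µM, against 7.60, 8.15 and 7.91 at 0 µM. Treated arrays were all above control arrays (1.03 ± 0.21, or 2.04-fold higher, adjusted p = 0.0458), and this call too was lost with any array left out.

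Among secreted proteins, Esm1 had the smallest adjusted p of the genes that rose. Esm1, endocan, a proteoglycan known as a product of endothelial cells, read 7.64, 7.66 and 7.68 at 5 µM against 6.0, 6.31 and 6.54 at 0 µM. The treated arrays were within 0.04 of each other and all above the controls, with a difference of 1.37 ± 0.18, or 2.59-fold higher (adjusted p = 0.000833). Esm1 was called in all 6 fits with an array left out, at 1.27 to 1.45. Because Esm1 is known from endothelium, the 11 measured endothelial markers are given beside it: their summed linear intensity was 997, 1237 and 926 at 5 µM and 820, 777 and 723 at 0 µM, with a median difference of -0.01 over the list. Of the 11, 5 were above 0 and 6 below. The marker that moved most was Kdr, the VEGF receptor, at 9.24, 9.72 and 9.09 with 5 µM and 8.62, 8.68 and 8.37 with 0 µM (0.80 ± 0.18). On the linear scale the rise of Kdr was about as large as that of the sum. None of the 11 was called in the fit of all arrays (adjusted p = 0.0661 for Kdr), but Kdr was called without the 2 arrays that went against their labels (adjusted p = 0.0462) and with basal arrays alone (adjusted p = 0.0301). Cldn5 lay at 4.61 to 4.69 at 5 µM and 4.66 to 4.78 at 0 µM, and Pecam1 lay at 4.90 to 5.36 at 5 µM and at 5.25 to 5.63 at 0 µM, so Cldn5 and Pecam1 were low in both groups. The part of endothelial cells in the Esm1 value was not tested. Among 39 growth factors, cytokines and receptors Esm1 was the only member called, and Grem1, a BMP antagonist, was next at 0.97 ± 0.27 (adjusted p = 0.316). In that list 3 members, Esm1 included, were higher and 1 was lower at an unadjusted p below 0.05.

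Fibin, a secreted factor named for its role in zebrafish fin bud initiation, fell to 8.19, 7.77 and 7.45 at 5 µM, against 8.95, 8.80 and 8.78 at 0 µM. Control arrays were tight and separate from the treated ones (-1.04 ± 0.20, adjusted p = 0.0223); a second probe set differed by -0.35. Crispld2, a secreted glycoprotein, read 7.68, 7.62 and 8.37 at 5 µM against 8.60, 8.72 and 9.30 at 0 µM. The difference was -0.99 ± 0.20 (adjusted p = 0.0358), with no overlap, and its other probe set differed by -0.86 (adjusted p = 0.0784). Ccdc3, a secreted coiled-coil protein, read 5.32, 5.30 and 4.94 at 5 µM against 6.12, 6.13 and 5.50 at 0 µM (-0.73 ± 0.14, adjusted p = 0.0182). Its other probe set differed by -0.84 (adjusted p = 0.149). The treated Ccdc3 values were near the low end of the scale.

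The protease inhibitor Serpinb1a, which blocks neutrophil serine proteases, rose to 7.72, 7.98 and 7.28 at 5 µM, against 7.12, 6.92 and 6.42 at 0 µM. Its arrays did not overlap (0.84 ± 0.16, adjusted p = 0.0273), while a second probe set, with a mean of 5.04 over the series, differed by 0.22. Slc14a1, the urea transporter of red cells and vessels, read 7.03, 6.57 and 6.92 at 5 µM against 5.73, 5.69 and 6.01 at 0 µM. Treated arrays were all higher, with a difference of 1.03 ± 0.18, or 2.04-fold (adjusted p = 0.00571), which was called in 2 of the 6 fits with an array left out. It was the only one called of 20 measured urea, water and ion transporters (median -0.03), where Slc4a4, a bicarbonate cotransporter, was next at -0.60 ± 0.21. In that list 1 member, Slc14a1 itself, was higher and 1 was lower at an unadjusted p below 0.05. A second Slc14a1 probe set, with a mean of 5.61 over the series, differed by 0.09. Tmem176b, a membrane protein of endosomal compartments in immune cells, read 10.23, 10.48 and 11.36 at 5 µM against 9.56, 9.90 and 10.48 at 0 µM. The groups overlapped because array 3 was highest at both doses, but each pair rose and the fitted difference was 0.71 ± 0.11 (adjusted p = 0.00254), called in all 6 fits with an array left out.

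Nuclear proteins were few. Bnc2, a zinc finger protein, read 11.13, 10.95 and 10.13 at 5 µM against 11.71, 11.57 and 10.93 at 0 µM. Array 3 was lowest in both groups, the groups overlapped, and the paired difference was -0.67 ± 0.13 (adjusted p = 0.031). Phf19, a Polycomb-like protein that recruits PRC2, read 5.76, 5.78 and 5.66 at 5 µM against 6.33, 6.44 and 6.15 at 0 µM. Its 2 groups were separate, with a difference of -0.57 ± 0.12 (adjusted p = 0.031). Nhlrc3, a gene of unclear role, rose to 9.53, 9.27 and 9.0 at 5 µM, against 8.77, 8.91 and 8.47 at 0 µM (0.55 ± 0.11, adjusted p = 0.0263). All treated arrays were above the controls, and the call was lost with any array left out.

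Of the 9 probe sets without a symbol, the one with the largest fall had 6.78, 6.81 and 5.28 at 5 µM against 8.26, 8.37 and 7.52 at 0 µM (-1.76 ± 0.31, adjusted p = 0.00714). The next read 6.94, 7.26 and 6.84 at 5 µM against 8.13, 8.57 and 8.74 at 0 µM (-1.46 ± 0.22, adjusted p = 0.00155), and neither overlapped between the groups. The one that rose read 7.54, 7.36 and 8.15 at 5 µM against 6.30, 6.69 and 7.09 at 0 µM. It lay near the threshold, with a difference of 0.99 ± 0.21 (adjusted p = 0.0466).

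Uncalled probe sets were then searched that had 1 gene symbol, a mean log2 intensity of at least 6 over the 6 arrays and no called gene. Of these, 681 separated the doses in all pairs and in all arrays, 245 higher and 436 lower at 5 µM. Without these limits, and with called ones included, 6.23% of all probe sets separated the doses, 2.16% higher and 4.08% lower. Among the named genes of this kind, the largest differences above 0 were Car3, a carbonic anhydrase, at 1.11 ± 0.36, the aldo-keto reductase Akr1b8 at 1.09 ± 0.33, 1 of 7 probe sets of tropomyosin Tpm1 at 1.03 ± 0.31, the cationic amino acid transporter Slc7a3 at 0.88 ± 0.32 and the nucleotide-sugar receptor P2ry14 at 0.87 ± 0.30. The Tpm1 probe set of highest mean differed by 0.03. Below 0 they were Papss2, given above, the decoy receptor Il13ra2 at -1.16 ± 0.28 (adjusted p = 0.133), collagen Col1a1 at -1.15 ± 0.33, collagen Col18a1 at -1.13 ± 0.31 and the cysteine dioxygenase Cdo1 at -1.07 ± 0.29. In all, 43 probe sets differed by at least 1 on the log2 scale and 28 of these were not called, so size alone did not decide a call.

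The genes of the wider pathways were then described by 19 lists with 426 distinct measured genes, each read by its probe set of highest mean. Called members were those already named: Sult1a1, Cyp26b1, Esm1 and Slc14a1. The other 15 lists had no called member, against 0.116% of all probe sets. Members with an unadjusted p below 0.05 are counted beside the 1.39% of all probe sets that were higher and the 2.46% that were lower at that threshold, and those named beyond the 2 largest differences of a list were chosen after their values were seen.

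**Figure D2:**
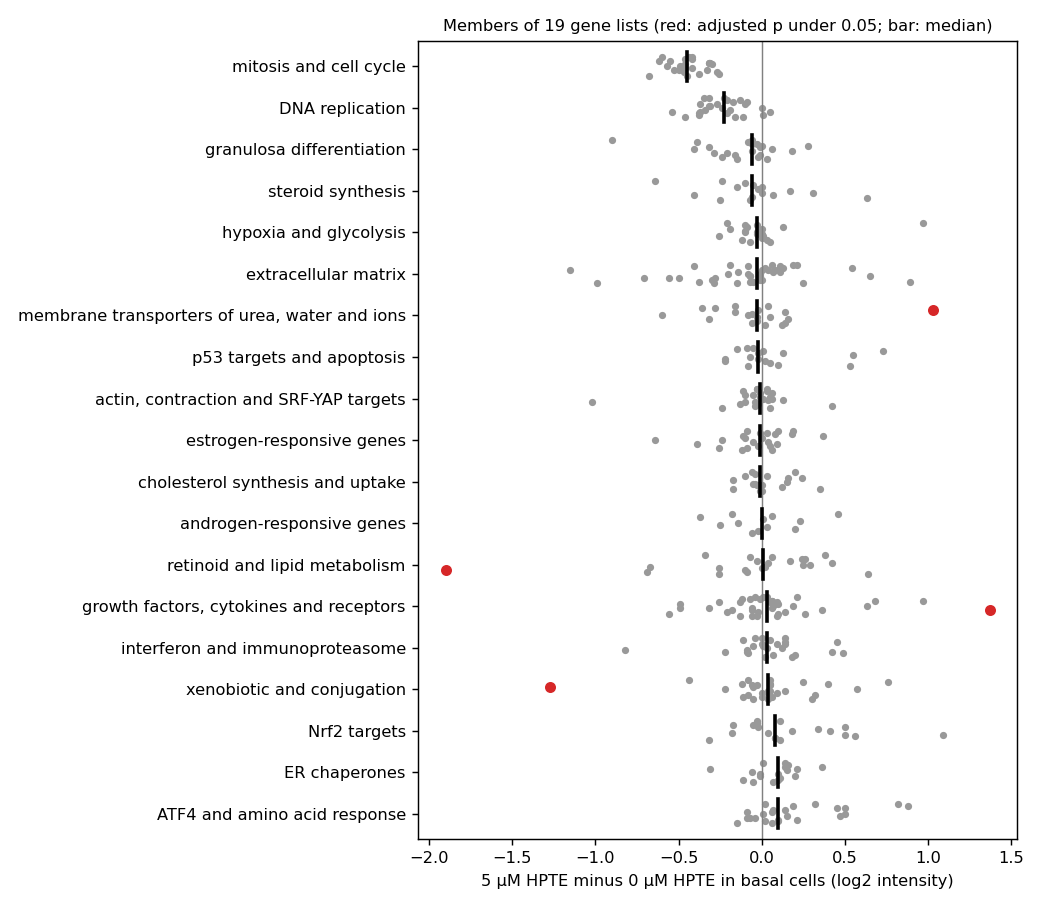
Differences between 5 µM and 0 µM HPTE in basal cells (log2 intensity, horizontal axis) for the members of 19 gene lists, 1 point a gene, with called genes in red and a black bar at each list's median. The mitosis list has its median at -0.45 with all 25 points below 0, and the red points are Cyp26b1 and Sult1a1 below 0 and Slc14a1 and Esm1 above it.

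Genes of cell division were lower as a list without any of them passing the test. All 25 measured mitosis and cell cycle genes had a difference below 0, with a range of -0.68 to -0.26 and a median of -0.45, against a median of -0.006 over all probe sets; 15 of the 25 were lower at an unadjusted p below 0.05. The median was -0.24 in pair 1, -0.47 in pair 2 and -0.58 in pair 3. Kif23, a kinesin of the dividing cell's midzone, had 10.63, 10.38 and 9.88 at 5 µM and 11.22, 11.14 and 10.60 at 0 µM (-0.68 ± 0.24, adjusted p = 0.721). Each treated array was below the control array of its number, while treated array 1 lay above control array 3. Ccna2, cyclin A, had 9.09, 8.78 and 7.81 at 5 µM and 9.44, 9.23 and 8.86 at 0 µM (-0.62 ± 0.23, adjusted p = 0.871). DNA replication genes showed a smaller median of -0.23, with 24 of 26 below 0 and 5 lower at an unadjusted p below 0.05 (Cdc45, Tk1, Uhrf1, Mcm4 and Mcm3). Tk1, thymidine kinase, differed by -0.54 ± 0.19 and Uhrf1 by -0.46 ± 0.17, neither called. Genes of 1 list are not independent replicates.

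**Figure D3:**
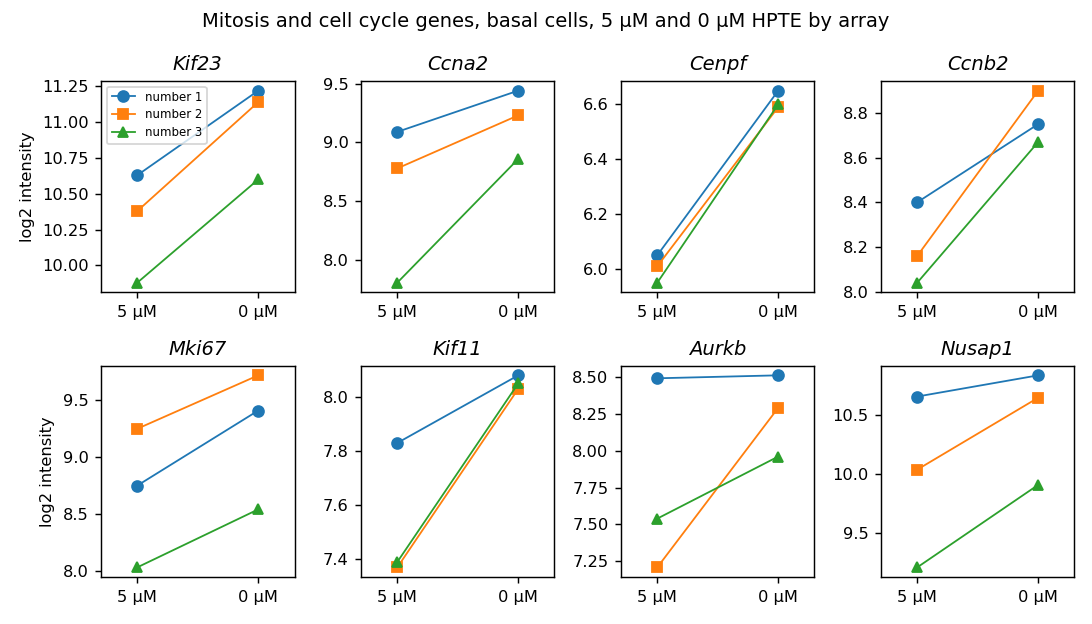
Log2 intensity (vertical axes, each with its own range that does not start at 0) of the 8 mitosis genes with the lowest differences in basal cells at 5 µM and 0 µM HPTE, with a line for each pair of arrays of equal number. Every line is lower at 5 µM, the fitted difference is -0.68 for Kif23 and -0.62 for Ccna2, and none of the 8 genes was called.

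Stress and redox lists held single genes that were higher without a call. In the ATF4 and amino acid response list 4 of 24 members were higher at an unadjusted p below 0.05 and the median was 0.10. Slc7a3 had 7.38, 8.45 and 8.33 at 5 µM and 7.07, 7.12 and 7.34 at 0 µM, so array 1 differed little and arrays 2 and 3 more (0.88 ± 0.32, adjusted p = 0.869). The pseudokinase Trib3 had 7.54, 8.78 and 8.89 at 5 µM and 7.22, 7.64 and 7.89 at 0 µM (0.82 ± 0.33), and the remaining members at that threshold were Slc3a2 (0.50) and Chac1 (0.47). Of 19 Nrf2 targets 2 were higher at an unadjusted p below 0.05, Akr1b8 and the quinone reductase Nqo1 (0.56 ± 0.17, adjusted p = 0.486), and the median was 0.08. ER chaperones had no member at that threshold (median 0.10, from Creld2 at -0.31 to Dnajc3 at 0.36).

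The hormone genes that give this cell its function showed no call. None of the 16 measured steroid synthesis genes reached an unadjusted p below 0.05, with a median of -0.06. Cyp11a1, the side-chain cleavage enzyme, differed by -0.64 ± 0.49 and Hsd17b1, which makes estradiol, by 0.63 ± 0.54. These 2 standard errors exceed those of the called probe sets, 0.08 to 0.31, so changes of the called size were less detectable for these genes. Star, the mitochondrial cholesterol carrier, had 8.65, 8.71 and 8.12 at 5 µM and 8.59, 8.23 and 7.72 at 0 µM (0.31 ± 0.30). Cyp19a1 differed by -0.15 with a standard error of 0.91. That error comes from the variance shared by all groups, the 2 arrays that went against their labels included. A change of the size of the called genes was thus not detectable for Cyp19a1 in this fit. Neither without those 2 arrays nor with basal arrays alone was any steroid synthesis or granulosa differentiation gene called. The 22 measured granulosa differentiation genes had a median of -0.06, with 2 lower and none higher at an unadjusted p below 0.05. Amh, anti-Müllerian hormone, had 7.23, 7.36 and 6.76 at 5 µM and 8.61, 8.36 and 7.06 at 0 µM (-0.90 ± 0.34, adjusted p = 0.91). Nr5a2 differed by -0.41 ± 0.23. Of 18 cholesterol genes none was past the unadjusted threshold (median -0.01; Tm7sf2 0.35 and Pmvk 0.24).

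Known targets of the receptors that HPTE binds were likewise without a call. Among 23 measured estrogen-responsive genes the median was -0.01, with 1 higher and 2 lower at an unadjusted p below 0.05. Greb1, an estrogen receptor cofactor, had 9.14, 9.67 and 8.15 at 5 µM and 9.60, 10.19 and 9.08 at 0 µM (-0.64 ± 0.26), and the corepressor Nrip1 had 10.33, 10.59 and 10.25 at 5 µM and 10.81, 10.88 and 10.67 at 0 µM (-0.39 ± 0.11, adjusted p = 0.274). Greb1 overlapped between the groups and Nrip1 did not. The progesterone receptor Pgr stayed near the lower end of the scale, at 4.45 to 4.94 at 5 µM and 4.46 to 4.76 at 0 µM. Esr2, estrogen receptor beta, differed by 0.18 ± 0.14, and Esr1, the alpha receptor, by -0.05 ± 0.12. Of 12 androgen-responsive genes, Abcc4 (0.46 ± 0.23) and Herc3 (-0.37 ± 0.13) differed the most and the median was 0.00. Only 1 of the 12 was lower at an unadjusted p below 0.05 and none was higher.

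The remaining lists had medians between -0.03 and 0.03 and no call. At an unadjusted p below 0.05, 3 extracellular matrix genes were higher and 5 lower, and 1 actin and contraction gene was lower. At that threshold 1 p53 and apoptosis gene and 1 hypoxia and glycolysis gene were higher, and the interferon list had 1 gene in each direction. In the extracellular matrix list (40 genes) Col1a1 had 9.18, 8.70 and 8.34 at 5 µM and 10.43, 9.50 and 9.73 at 0 µM, and Col1a2 differed by -0.99 ± 0.41. In the actin and contraction list (24 genes) Actg2, an enteric actin, differed by -1.02 ± 0.24 (adjusted p = 0.0912) and Ankrd1 by 0.42 ± 0.50. Casp4 (0.73 ± 0.23) and Gadd45a (0.55 ± 0.27) led the 17 p53 and apoptosis genes. Adrenomedullin, Adm, had 8.50, 8.97 and 9.87 at 5 µM and 7.83, 8.03 and 8.55 at 0 µM (0.97 ± 0.25, adjusted p = 0.193) among 20 hypoxia and glycolysis genes, where Pfkfb3 was next at -0.26. In the interferon list (25 genes) Oas1a differed by -0.82 ± 0.32 and Rsad2 by 0.49 ± 0.30.

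The place of 5 µM in the dose series was read from basal arrays at 0, 1, 5 and 10 µM. Comparisons with 0 µM share the same 3 control arrays, so only the values are given side by side. At 1 µM no probe set was called against 0 µM (0.0%; 382 at an unadjusted p below 0.05), and at 10 µM 1059 were (3.41%; 1.61% higher and 1.8% lower). Cyp26b1 averaged 9.01 ± 0.17, 8.18 ± 0.30, 7.11 ± 0.11 and 6.47 ± 0.64 (SD, n = 3) at 0, 1, 5 and 10 µM, a lower mean at each step. Esm1 averaged 6.28 ± 0.27, 6.71 ± 0.18, 7.66 ± 0.02 and 8.04 ± 0.20 at the same doses, a higher mean at each step. Slc14a1 had its highest mean at 5 µM, with 5.81, 6.33, 6.84 and 6.21 along the doses. Mylk3 had the same shape, with means of 7.89, 8.60, 8.91 and 8.11. Serpinb1a had means of 6.82, 6.88, 7.66 and 8.74, close together at 0 and 1 µM, and Sult1a1 had 6.17, 5.62, 4.90 and 4.8, close together at 5 and 10 µM.

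Neighbouring doses were tested directly. Between 5 and 1 µM no probe set was called (0.0%; 877, or 2.83%, had an unadjusted p below 0.05), so the step between these doses was not shown for any single gene. Between 10 and 5 µM 148 were called (0.477%), 78 higher and 70 lower at 10 µM. Of the 27 probe sets that fell at 5 µM, 4 were lower again at 10 than at 5 µM (0.226% of all): Crispld2 (-0.85, adjusted p = 0.0499), Map2 (-0.70, adjusted p = 0.00353), Ppm1k (-0.50, adjusted p = 0.0221) and 1 without a symbol. Of the 9 that rose, 1 was higher again (0.251% of all), Serpinb1a at 1.08 ± 0.16 (adjusted p = 0.00127). Slc14a1 and Mylk3 were not shown to differ between these doses (-0.63 ± 0.18, adjusted p = 0.134, and -0.80 ± 0.21, adjusted p = 0.112). Both neighbouring comparisons contain the 5 µM arrays on which the 36 were called. For the mitosis list the median was -0.45 between 5 and 1 µM with no member called, and -0.70 between 10 and 5 µM, where 8 of the 25 were called lower.

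**Figure D4:**
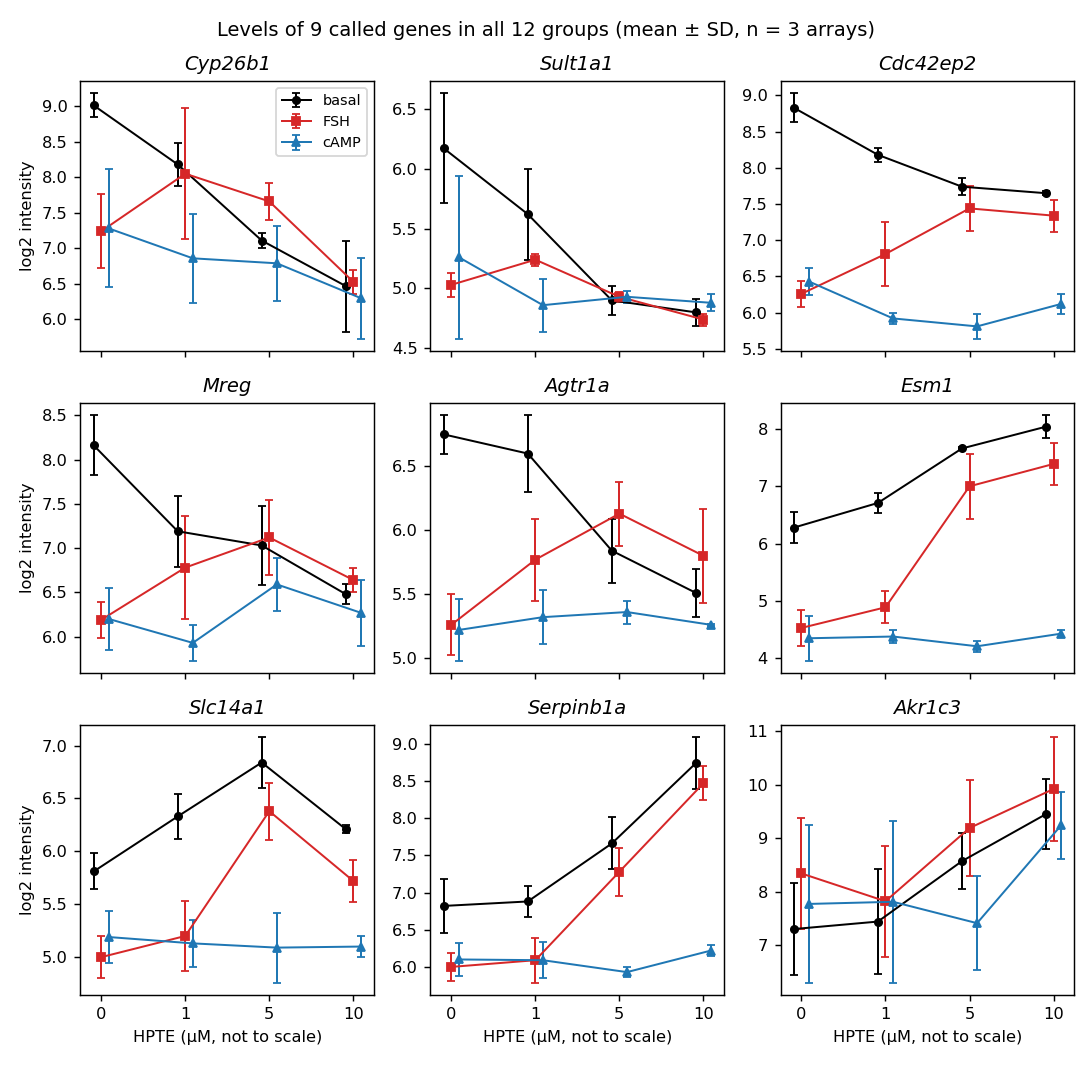
Mean log2 intensity ± SD (n = 3 arrays) of 9 called genes at 0, 1, 5 and 10 µM HPTE (horizontal axis, not to scale) in basal cells (black), with FSH (red) and with cAMP (blue); vertical axes have their own ranges and do not start at 0. In basal cells Cyp26b1 averaged 9.01, 8.18, 7.11 and 6.47 along the doses and Esm1 6.28, 6.71, 7.66 and 8.04, while Esm1 with cAMP stayed between 4.21 and 4.43; the unexposed FSH and cAMP means each include an array that went against its label.

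The same dose was also given with FSH and with cAMP, on other arrays than the basal ones. They carry the same numbers 1 to 3, the block and the variance estimate are common to all groups, and number 3 stood apart in each. With FSH 4426 probe sets were called between 5 and 0 µM HPTE (14.3%; 14.0% without the 2 arrays that went against their labels). Of the 9 probe sets that rose in basal cells, 7 were higher with FSH (6.4% of all), and 6 without those 2 arrays (6.48%). They were Esm1 (2.47 ± 0.18, adjusted p = 1.27e-09), Slc14a1 (1.38 ± 0.18), Serpinb1a (1.28 ± 0.16), Akr1c3 (0.85 ± 0.25), Mylk3 (0.75 ± 0.21, lost without the 2 arrays at adjusted p = 0.095), Fzd1 (0.52 ± 0.12) and Nhlrc3 (0.44 ± 0.11). Of the 27 that fell in basal cells, 7 were lower with FSH (7.86% of all) and 4 were higher (6.4%), so falling genes moved both ways. Ppm1k (-1.14 ± 0.11), Crispld2 (-0.86 ± 0.20), Fibin (-0.80 ± 0.20) and Bnc2 (-0.76 ± 0.13) were lower with FSH, with 3 probe sets without a symbol, of which the one with the largest basal fall differed by -3.68. Cdc42ep2 (1.18 ± 0.16, adjusted p = 5.04e-06), Mreg (0.94 ± 0.17), Agtr1a (0.86 ± 0.19) and Rhou (0.51 ± 0.11) were higher. Without the 2 arrays 7 of the 27 were lower (7.47%) and 5 higher (6.48%). The median of the 27 was 0.03, against -0.037 over all probe sets.

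The group means behind these values show where the levels started. Cdc42ep2 averaged 7.74 ± 0.12 at 5 µM and 8.83 ± 0.20 at 0 µM in basal cells, and 7.44 at 5 µM and 6.26 at 0 µM with FSH, so the 2 exposed groups were nearer to each other than the unexposed ones. Mreg averaged 7.03 at 5 µM and 8.16 at 0 µM in basal cells, and 7.12 at 5 µM and 6.19 at 0 µM with FSH. Agtr1a averaged 5.84 at 5 µM and 6.75 at 0 µM in basal cells, and 6.13 at 5 µM and 5.26 at 0 µM with FSH. Cyp26b1 averaged 7.11 at 5 µM and 9.01 at 0 µM in basal cells, while the FSH means were 7.66 at 5 µM and 7.24 at 0 µM. Unexposed cells with cAMP lay near those with FSH for these genes, at 6.43 for Cdc42ep2, 6.20 for Mreg, 5.22 for Agtr1a and 7.28 for Cyp26b1. The probe set without a symbol that had the largest basal fall was higher with FSH, at 6.29 with 5 µM and 8.05 with 0 µM in basal cells and at 7.8 with 5 µM and 11.48 with 0 µM under FSH. Esm1 averaged 7.66 at 5 µM and 6.28 at 0 µM in basal cells, and 7.0 at 5 µM and 4.53 at 0 µM with FSH. Its larger rise with FSH thus began from a lower level and ended below the exposed basal mean.

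The difference between the FSH and the basal effect was tested as an interaction, which contains the basal arrays on which the 36 were called. It was called for 17 of the 27 falling probe sets in the direction of a higher effect with FSH (3.23% of all) and for 2 in the other direction (2.08%), and for 1 of the 9 rising ones, Esm1. The largest of these were Cyp26b1 at 2.33 ± 0.43 (adjusted p = 0.001), Cdc42ep2 at 2.27 ± 0.23 (adjusted p = 2.09e-06) and Mreg at 2.06 ± 0.24 (adjusted p = 9.06e-06). Sult1a1 differed by 1.17 ± 0.28 (adjusted p = 0.00971), with an effect under FSH of -0.10 ± 0.20. Its FSH means were 4.93 at 5 µM and 5.03 at 0 µM, against 4.90 and 6.17 in basal cells. The unexposed FSH level was thus near the low end already, and an absent fall cannot be told apart from a low start. Without the 2 arrays that went against their labels Adgrf5 was no longer called (adjusted p = 0.0575). Of all probe sets 7.25% were then called (3.89% higher, 3.36% lower), among them 18 of the 27 in the higher and 2 in the lower direction.

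With cAMP 23 probe sets were called between 5 and 0 µM HPTE (0.0741%; 0.0644% higher and 0.00966% lower), and 627 without the 2 arrays (2.02%). Nhlrc3 was the one member called, at 0.61 ± 0.11 (adjusted p = 0.0244). Without the 2 arrays 2 of the 9 rising probe sets were higher, Nhlrc3 (0.72) and Mylk3 (0.93, adjusted p = 0.0235), against 0.934% of all. Of the 27 falling ones 2 were then lower, Cdc42ep2 (-0.69, adjusted p = 0.0456) and Phf19 (-0.50, adjusted p = 0.0447), against 1.09% of all. The cAMP effect minus the basal effect was called for Mreg (1.52 ± 0.24, adjusted p = 0.0167), for Esm1 (-1.51 ± 0.26, adjusted p = 0.0236) and for 2 falling probe sets without a symbol, 4 of 5 calls in all (0.0161%; 0.0129% higher and 0.00322% lower). Without the 2 arrays 3 probe sets were called, all higher (0.00966% of all): Mreg, Clec2d2l2 and 1 without a symbol, and Esm1 was not among them (-1.36, adjusted p = 0.0665). Esm1 averaged 4.21 at 5 µM and 4.35 at 0 µM with cAMP, near the low end of the scale in both. For the other members a difference between the cAMP and basal effects was not shown.

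**Figure D5:**
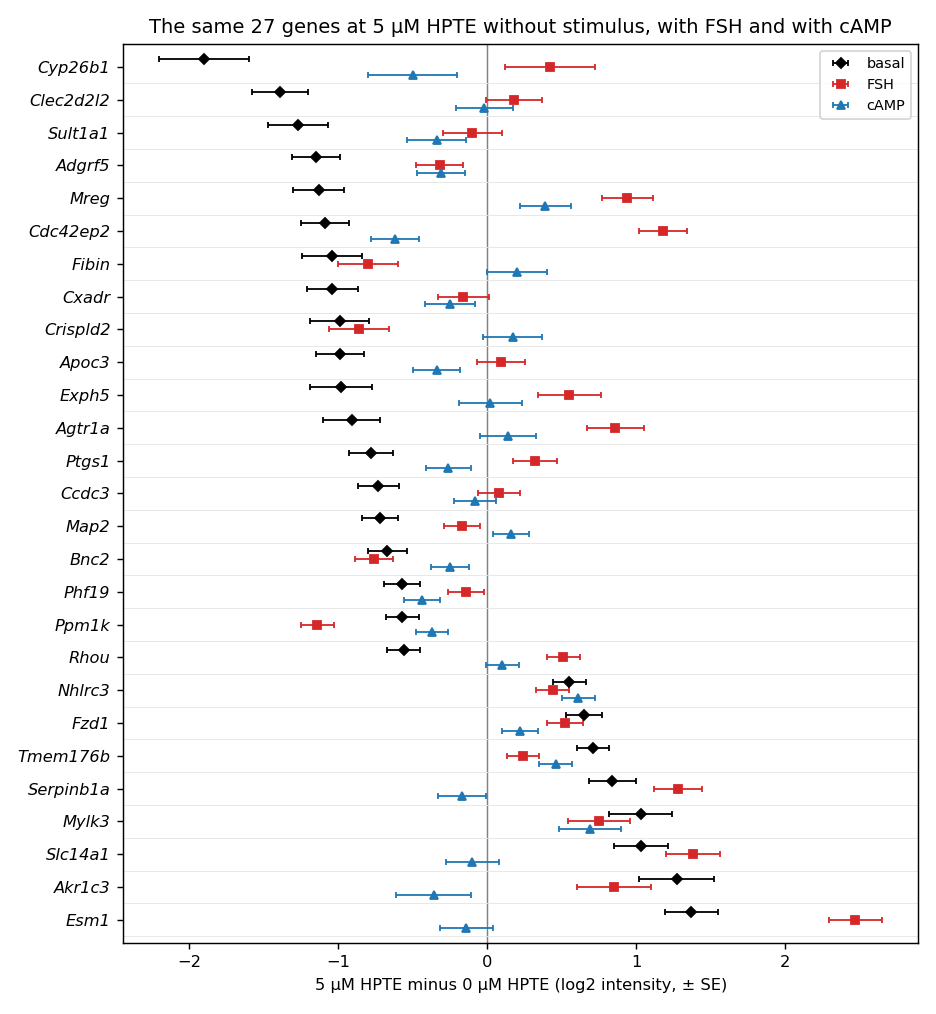
Fitted difference between 5 µM and 0 µM HPTE (log2 intensity ± SE, horizontal axis) for the 27 named genes in basal cells (black), with FSH (red) and with cAMP (blue), ordered by the basal value that chose them. Esm1 was at 1.37 in basal cells, 2.47 with FSH and -0.14 with cAMP, and Cdc42ep2 at -1.09, 1.18 and -0.62.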

How the data were processed

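The deposited values are linear intensity values per probe set, summarised by the authors with RMA per the submitters' processing notes; their genome build is not named in the labels. Of 31099 probe sets, 57 controls were left out and 31042 tested; 20826 carry 1 gene symbol, 436 several and 9780 none in the platform annotation, and 20758 were updated through gene identifiers. Log2 was taken, and limma 3.58.1 (R 4.3.3) fitted 12 group means with the array number as a fixed block over all 36 arrays, with moderated variances and Benjamini-Hochberg adjustment over all probe sets. The numbers were taken to pair the arrays: deviations from the group means of equally numbered 5 and 0 µM arrays correlated at 0.651, 0.527 and 0.888, while those of unequal numbers correlated at 0.281 and 0.435 between numbers 1 and 2 and at -0.731 to -0.542 with number 3, so numbers 1 and 2 were less clearly told apart. The block was asked for knowing that few probe sets pass without it. The comparison, lists and named genes were chosen with earlier results of these data known. Named were all called genes with 1 symbol, the 5 largest rises and 5 largest falls among separated uncalled genes with mean log2 intensity of at least 6, and called or otherwise the 2 most different members of each list. The number of arrays, 3 a group, limits the precision. The fit was tested on data simulated from the same block model with independent noise. That test cannot speak to the choice of block or to the 2 arrays that went against their labels. Alternatives covered the block, normalization, intensity filter, variance trend and arrays left out. Figures used matplotlib 3.10.9. Results for 1 further gene list are not reported here.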

Additional observations from a re-analysis of the deposited data

Results flagged for a closer look

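In 14 genes that fell and 1 that rose in basal cells, the effect of 5 µM HPTE with FSH differed from the basal effect by the interaction test. The FSH effect minus the basal effect (log2) was 2.33 for Cyp26b1, 2.27 for Cdc42ep2, 2.06 for Mreg, 1.77 for Agtr1a, 1.57 for Clec2d2l2 and 1.53 for Exph5. It was 1.17 for Sult1a1, 1.1 for Ptgs1, 1.08 for Apoc3, 1.08 for Rhou, 0.88 for Cxadr, 0.83 for Adgrf5 and 0.81 for Ccdc3. It was -0.57 for Ppm1k, which fell more with FSH, and 1.1 for Esm1, which rose more with FSH. Without the 2 arrays that went against their labels the interaction test no longer called Adgrf5 (0.77, adjusted p = 0.0575). It then called Map2 (0.61, adjusted p = 0.0384). With cAMP the corresponding difference was 1.52 for Mreg and -1.51 for Esm1, and Esm1 was not called without the 2 arrays that went against their labels (-1.36, adjusted p = 0.0665). All of these contain the basal arrays on which the genes were called. With FSH some unexposed means were already low: 4.94 for Exph5, 5.03 for Sult1a1, 5.06 for Ccdc3, 5.47 for Ptgs1 and 5.50 for Adgrf5. For these a lesser or absent fall with FSH cannot be told apart from a low start. Esm1 started at 4.53 with FSH and at 6.28 in basal cells, and averaged 7.0 and 7.66 at 5 µM.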

How the results depend on the processing

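The 36 calls at 5 µM became 4 without the replicate block, 20 with the block as a random effect, 1 with numbers 1 and 2 alone, 69 without number 2 of the unexposed FSH and cAMP groups, 70 with basal arrays alone and 223 with the 6 arrays alone; leaving out 1 array gave 14 to 27. Quantile normalization (47), a minimum mean intensity (37) and a variance trend (43) moved the count by less than 1.5 times. With the minimum intensity 27 of the 36 probe sets and 18 of the 27 named genes were called again. The others, Sult1a1, Slc14a1 and Esm1 among them, were left out by the filter and so not tested there. No named gene changed sign in any of these fits that held it. Between 5 and 1 µM the count was 0 in every fit run. Between 10 and 5 µM the 148 calls became 29 without the block, 92 with it as a random effect, 2 with numbers 1 and 2 alone, 231 without the 2 arrays and 29 to 97 with 1 array left out. For the FSH effect minus the basal effect 1651 became 476 without the block, 265 with numbers 1 and 2 alone and 1096 to 1941 with 1 array left out. For cAMP 5 became 0 without the block, 3 with quantile normalization, 0 with numbers 1 and 2 alone, 3 without the 2 arrays and 0 to 8 with 1 array left out. Where arrays were left out, fewer arrays enter the fit, yet the count moved both ways, and the 36 calls rose to 69, 70 and 223 in some such fits. The cause of the shifts was not tested in any setting.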
